A study of Mus musculus with 33 samples.

Results

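The genes described here are Tshz3, Bcas1, Bmp3, Lct, Ccdc3, Nr2f2, Sall3, Shisa6 and Tubb4b, 9 of the 23366 genes counted in frontal cortex of young mice. They were picked by their small p-values between nicotine-containing and nicotine-free e-cigarette aerosol in an earlier analysis of these same libraries. Tshz3, Bcas1, Bmp3, Lct and Ccdc3 ranked 1, 2, 3, 4 and 6 by p in the male table, and Nr2f2, Sall3, Shisa6 and Tubb4b ranked 2, 3, 5 and 6 in the female table. All 9 passed the filter on low counts in both tables, which left 15158 genes in the female table and 15293 in the male table. The difference between the aerosols in the table that picked a gene is therefore a description, and only the other table can test it.

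All animals were C57BL/6 offspring of about 1 month of age (postnatal day 25 to 31). Exposure was through the dam in gestation and of dam and litter during lactation, in sessions of 3 h on 5 days of the week. The air was filtered, or carried aerosol from a cartridge with 13 to 16 mg/mL nicotine, or aerosol from a nicotine-free cartridge of the same brand. The female table held 6 air, 5 nicotine and 5 no-nicotine libraries and the male table held 6 air, 6 nicotine and 5 no-nicotine libraries, each from 1 pup of a separate litter. The treatments were given in separate chambers and the sexes were sequenced in separate runs, so treatment and chamber cannot be told apart, nor can sex and run. Library totals ran from 19150562 to 27513174 counts in the female table and from 17845672 to 24787955 in the male table.

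In the frontal cortex, glutamatergic projection neurons carry signals out of each layer, inhibitory interneurons that arise from the ganglionic eminences shape their firing, and oligodendrocytes wrap axons in myelin. Nicotine acts on nicotinic acetylcholine receptors, which are present on many of these cells during development. Among the genes described here, Tshz3 and Sall3 encode zinc finger transcription factors and Nr2f2 encodes the orphan nuclear receptor COUP-TFII, a marker of interneurons from the caudal ganglionic eminence. Bmp3 is an atypical secreted member of the bone morphogenetic protein (BMP) family that opposes other BMPs, and Ccdc3 encodes a secreted coiled-coil protein. Bcas1 marks oligodendrocytes that are making myelin, Shisa6 is an auxiliary subunit of synaptic AMPA receptors, Tubb4b is a beta-tubulin of microtubules, and Lct encodes lactase, best known from the intestinal brush border.

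On build mm9, Tshz3 lay on chromosome 7 (37483137 to 37558476, plus strand), Bcas1 on chromosome 2 (170172491 to 170253345, minus strand), Bmp3 on chromosome 5 (99283458 to 99309979, plus strand), Lct on chromosome 1 (130181333 to 130224895, minus strand) and Ccdc3 on chromosome 2 (5058822 to 5151924, plus strand). Nr2f2 lay on chromosome 7 (77496832 to 77511621, minus strand), Shisa6 on chromosome 11 (66025227 to 66339466, minus strand) and Tubb4b, annotated there as Tubb2c, on chromosome 2 (25077680 to 25080222, minus strand). Of the exonic bases of Ccdc3, 69.1% are covered by exons of the opposite-strand gene Gm16934, and for Bcas1 12.6% are covered by opposite-strand exons of 1700040N02Rik and Gm14259. For Tubb4b 5.80% of exonic bases overlap Fam166a on the opposite strand. Whether strand was used in counting is not stated, so reads of these pairs cannot be told apart. Counts were per exons of a gene, and all values below are gene totals.

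The promoters of 5 of the 9 genes were found in the RefSeq table (build GRCm38.p6); Bcas1, Bmp3, Sall3 and Shisa6 were not matched. The 250 bases before the start of Tshz3, Ccdc3 and Lct are shown, the genes picked in the male table whose promoter was found. Each had its lowest group mean in the male no-nicotine group, as did Tubb4b (17.9 CPM). Capitals mark GGGCGG (GC box) or CCAAT in either orientation.
Tshz3 (chr7:36697868-36698117, plus strand): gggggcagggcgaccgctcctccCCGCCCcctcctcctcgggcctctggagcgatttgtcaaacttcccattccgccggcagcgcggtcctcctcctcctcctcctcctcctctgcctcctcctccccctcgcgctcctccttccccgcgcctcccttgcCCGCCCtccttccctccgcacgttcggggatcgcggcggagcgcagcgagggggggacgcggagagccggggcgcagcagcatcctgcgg
Ccdc3 (chr2:5137526-5137775, plus strand): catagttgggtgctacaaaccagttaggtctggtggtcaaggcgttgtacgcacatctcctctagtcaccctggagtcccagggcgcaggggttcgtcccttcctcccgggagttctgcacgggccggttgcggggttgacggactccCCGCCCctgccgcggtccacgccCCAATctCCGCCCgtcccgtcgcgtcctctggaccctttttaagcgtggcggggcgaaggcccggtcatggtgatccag
Lct (chr1:128328319-128328568, minus strand): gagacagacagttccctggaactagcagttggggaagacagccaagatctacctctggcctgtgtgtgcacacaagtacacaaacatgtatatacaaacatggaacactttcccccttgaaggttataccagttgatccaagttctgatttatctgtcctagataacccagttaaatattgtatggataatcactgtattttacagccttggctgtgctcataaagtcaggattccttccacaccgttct
The Tshz3 sequence held 27 CpG dinucleotides at 74.0% GC and 2 GC boxes, whose leftmost bases lay 227 and 90 bases before the start. Ccdc3 had 22 CpG at 65.2% GC, with 1 CCAAT (79 bases before the start) and 2 GC boxes (102 and 72 bases). Lct had 1 CpG at 42.8% GC and none of the motifs searched. Over all 32851 promoters of this length the medians were 6 CpG and 52.4% GC, and on either strand 12.4% held the TATA box letters TATAAA, 33.8% the CCAAT box, 32.7% the GC box and 6.02% the E-box letters CACGTG. Each motif was counted on its own. Of the female-table genes, Tubb4b had 5 CCAAT boxes and 1 GC box at 13 CpG, and Nr2f2 had 2 CCAAT boxes at 1 CpG. These are letter matches in a window and no binding was measured.

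In the male table, the nicotine-free group stood apart from both other groups for the 5 genes picked there: Tshz3, Bmp3, Lct and Ccdc3 were lowest and Bcas1 highest in it. Values are CPM, a gene's counts scaled to library size by the trimmed mean of M-values (TMM), and fold changes are log2 estimates from edgeR with their standard errors (SE).

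Tshz3 in males was 28.1, 29.8 and 32.9 CPM (lowest, median, highest) in air and 23.5, 25.7 and 31.7 CPM with nicotine. The no-nicotine libraries had 15.8, 16.6, 17.7, 15 and 20.5 CPM. All 5 of these lay below every air and every nicotine library, and air and nicotine overlapped. The difference, nicotine minus no nicotine, was 0.63 (SE 0.0825).

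Bmp3 in males was 10.3, 14.1 and 16.6 CPM in air and 8.54, 11.8 and 13.9 CPM with nicotine. Without nicotine it was 4.65, 2.60, 5.88, 3.80 and 5.78 CPM. The same split appeared, with air and nicotine overlapping and every no-nicotine library below both. The log2 difference between the aerosols was 1.31 (SE 0.180), a 2.49-fold higher level with nicotine.

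Lct, a low-count gene, showed the largest fold of the 9. In males it was 2.30, 2.50 and 3.14 CPM in air and 1.28, 2.90 and 3.95 CPM with nicotine. The no-nicotine values were 1.16, 0.651, 0.926, 0.709 and 0.994 CPM, from 14 to 25 counts each. The groups did not overlap, though the lowest nicotine library (replicate 19) sat close to the highest no-nicotine library, and the log2 difference was 1.66 (SE 0.227).

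Ccdc3 in males was 19.4, 22.4 and 23.6 CPM in air and 13.4, 20.8 and 22.2 CPM with nicotine. Without nicotine it was 11, 7.60, 10.1, 10.4 and 13.2 CPM. Again the nicotine-free libraries lay below all others, and the log2 difference between the aerosols was 0.87 (SE 0.132).

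Bcas1, the oligodendrocyte gene, ran the other way. In males it was 144, 154 and 165 CPM in air and 149, 158 and 176 CPM with nicotine. In the no-nicotine libraries it was 203, 208, 225, 241 and 196 CPM, above every other male library, and the log2 difference between the aerosols was -0.41 (SE 0.0557).

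These 5 of 5 genes with aerosol groups that did not overlap stand beside 2.15% of all genes in the male table, and all 5 were among the 38 genes (0.248%) past an adjusted p of 0.01 in edgeR; both counts follow from the rule that chose them. Just outside their ranks were Slc39a10 (rank 5, 0.42, not among the 9) and Rtn4rl1 (rank 7, 0.41). Xist stood at 219 CPM, with 1 count over the Y-linked genes, in replicate 21 of the group labelled male nicotine, where the other 16 male libraries had at most 0.246 CPM of Xist and at least 110 CPM over Y-linked genes and the female libraries had 114 to 158 CPM of Xist. Without it the 5 differences were 0.64 for Tshz3, -0.41 for Bcas1, 1.29 for Bmp3, 1.69 for Lct and 0.85 for Ccdc3. In that fit 5 rather than 38 genes of the male table passed the threshold. Tshz3, Bcas1, Bmp3 and Lct were among them (edgeR adjusted p = 0.00869), and Ccdc3 was not (0.0163).

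**Figure D1:**
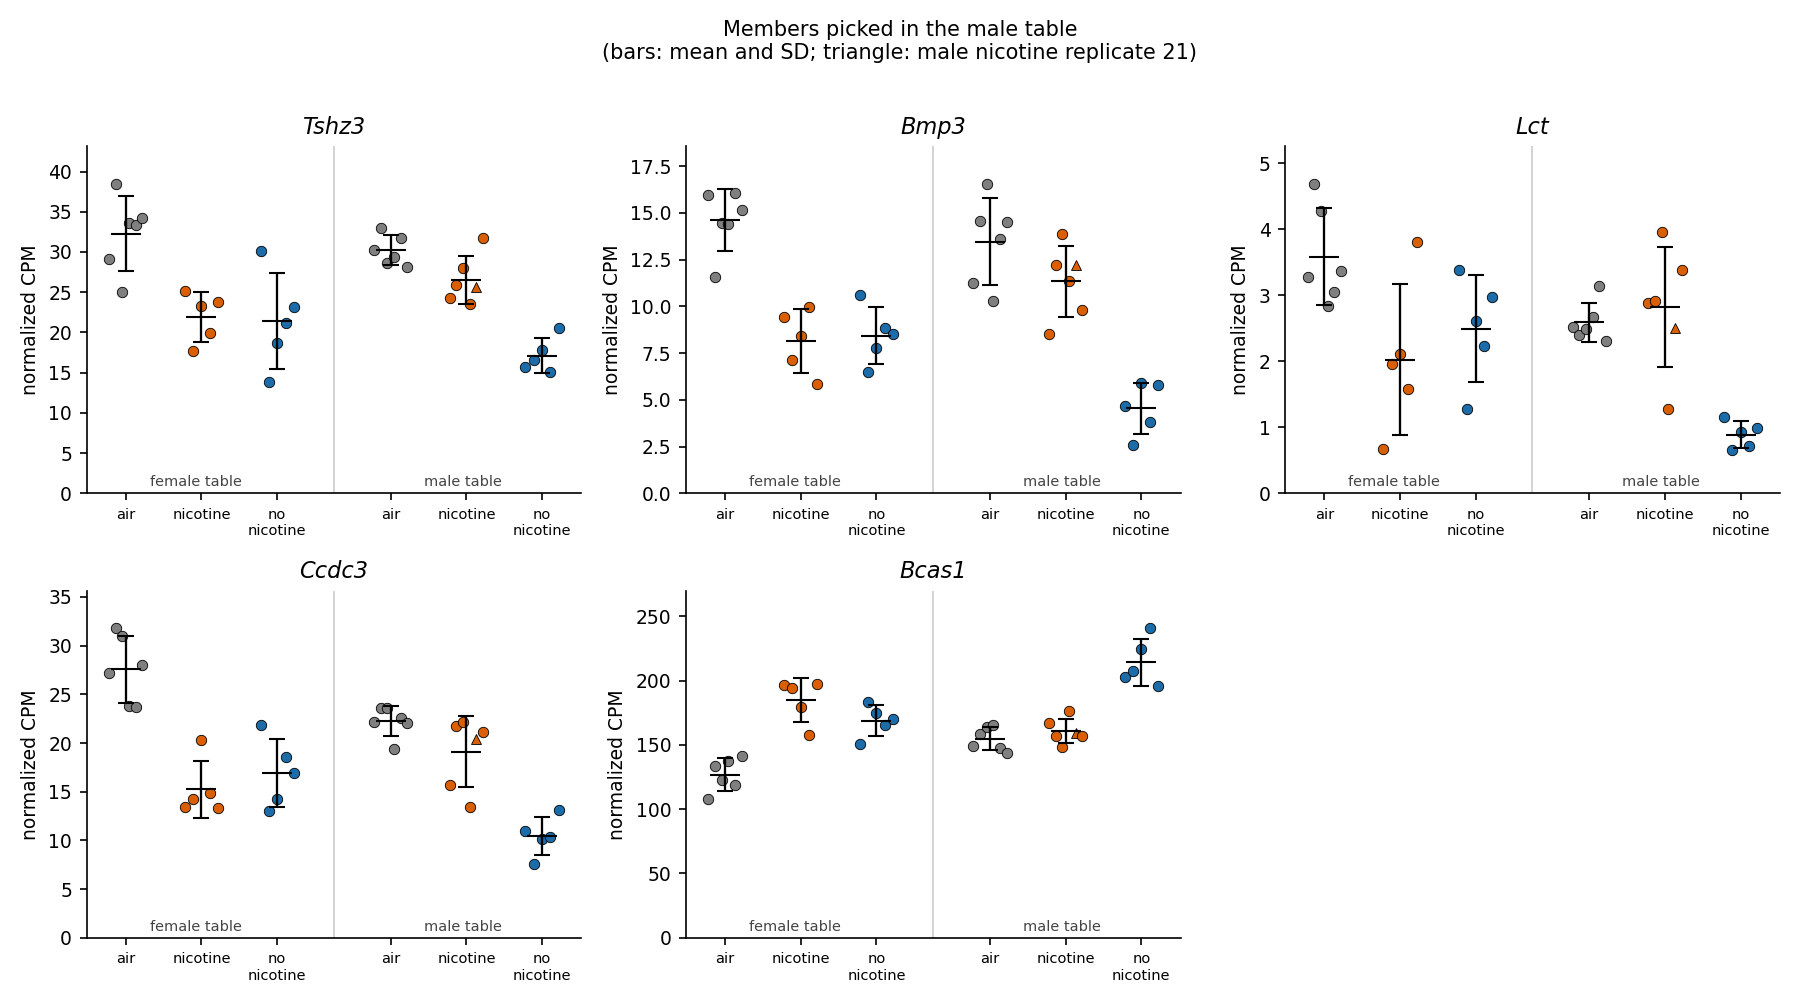
Normalized CPM of Tshz3, Bmp3, Lct, Ccdc3 and Bcas1 in each library of the female and male tables by treatment, with the group mean and SD as bars and male nicotine replicate 21 as a triangle. In males the no-nicotine points lie apart from air and nicotine. In females the means of both aerosol groups lie on the same side of the air mean, and Tshz3 and Lct points overlap air.

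The female table gave the test of these 5 genes, and the split between the aerosols was not seen in it. Females of both aerosol groups had lower Tshz3, Bmp3, Lct and Ccdc3 and higher Bcas1 than air on average, and the aerosol groups overlapped for all 5. Of the 5, 0 passed an adjusted p of 0.01 between the aerosols, and 0 had groups that did not overlap, beside 1.01% of all genes. No gene of the female table passed in this contrast (0 of 15158, 0%, edgeR; also 0 with the DESeq2 Wald test), and 8.35% of genes had an unadjusted p under 0.05, none of the 5 among them.

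Tshz3 in females was 25.2, 17.7, 23.2, 19.9 and 23.8 CPM with nicotine and 30.1, 13.8, 18.7, 21.2 and 23.2 CPM without. The nicotine values lay inside the range of the others, which the highest and lowest libraries of the no-nicotine group set. The log2 difference was 0.03 (SE 0.160, 95% interval -0.30 to 0.37, edgeR adjusted p = 0.967; exact permutation p = 0.738, two-sided), where the male estimate was 0.63.

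Bmp3 in females was 9.46, 7.10, 8.40, 9.95 and 5.82 CPM with nicotine and 10.6, 6.47, 7.76, 8.85 and 8.50 CPM without. The sets interleave. The log2 difference was -0.06 (SE 0.144, 95% interval -0.36 to 0.25, edgeR adjusted p = 0.937; exact permutation p = 0.754), beside 1.31 in males.

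Lct in females was 0.672, 1.96, 2.11, 1.58 and 3.80 CPM with nicotine and 3.38, 1.28, 2.61, 2.23 and 2.97 CPM without. The nicotine group held both the lowest and the highest aerosol library, a 5.65-fold spread from 14 to 94 counts. The estimate on the log2 scale was -0.29 (SE 0.314, 95% interval -0.96 to 0.37, edgeR adjusted p = 0.818; exact permutation p = 0.397), opposite in sign to the 1.66 in males and with the widest interval of the 5.

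Ccdc3 in females was 13.4, 14.3, 20.4, 14.9 and 13.3 CPM with nicotine and 21.8, 13.0, 14.2, 18.6 and 17 CPM without. Nicotine replicate 3 stood above the other 4 of its group, and the groups overlapped. On the log2 scale the groups differed by -0.15 (SE 0.141, 95% interval -0.45 to 0.14, edgeR adjusted p = 0.786; exact permutation p = 0.421), beside 0.87 in males.

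Bcas1 in females was 196, 194, 179, 158 and 197 CPM with nicotine and 151, 183, 175, 165 and 170 CPM without. In the nicotine group 3 libraries exceeded all those without nicotine, the reverse of the male order. As a log2 fold change this was 0.13 (SE 0.0762, 95% interval -0.03 to 0.29, edgeR adjusted p = 0.659; exact permutation p = 0.135), beside -0.41 in males. As a description only, the end of the female interval nearest the male estimate fell short of it for all 5 genes. The difference between the tables was itself not tested, since the male contrast chose the genes.

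**Figure D2:**
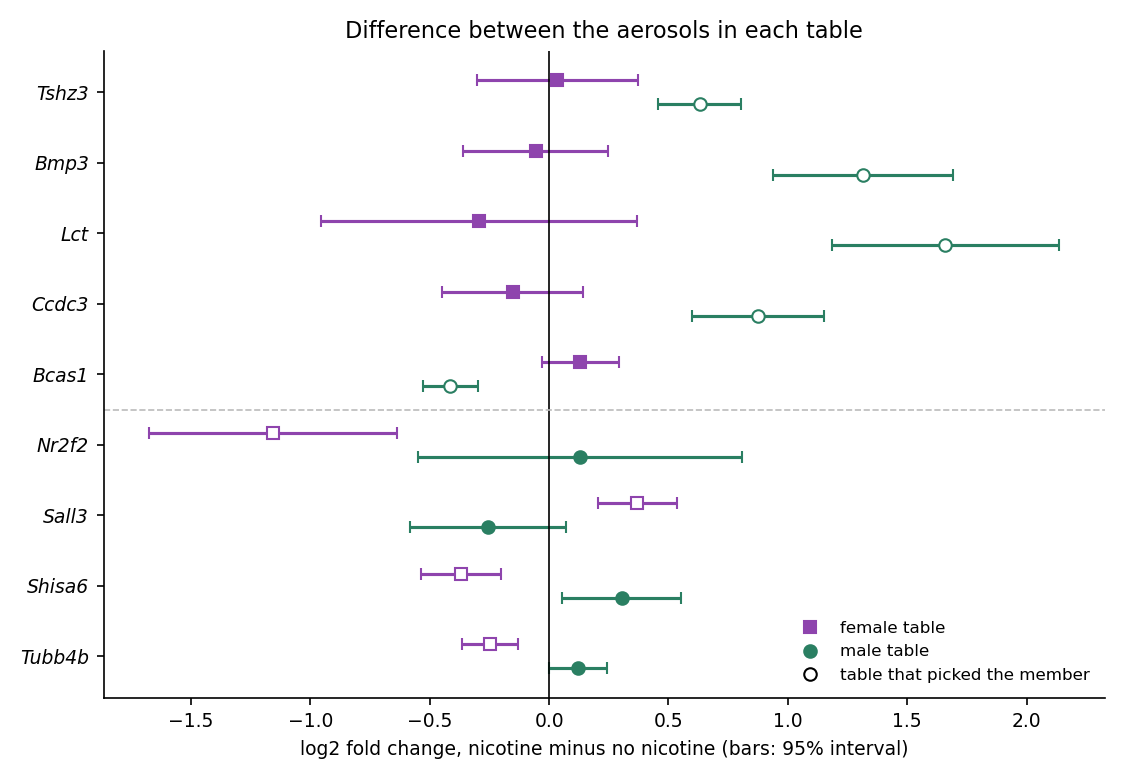
Log2 fold change, nicotine minus no nicotine, with 95% intervals for the 9 genes in the female table (squares) and the male table (circles), open where the table picked the gene. The filled points, which were not used in picking, lie near 0 or on the other side of it from the open ones.

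Against air, 3 of the same 5 genes changed in females with both aerosols. Bcas1 rose and Bmp3 and Ccdc3 fell with either aerosol, Tshz3 passed the threshold only without nicotine, and Lct did not pass with either. With nicotine 3 of 5 passed an adjusted p of 0.01, where 4.29% of all genes did (1.98% higher, 2.32% lower), and 3 of 5 had groups that did not overlap (6.67% of all genes). Without nicotine 4 of 5 passed, where 12.1% of all genes did (5.03% higher, 7.03% lower), and 3 of 5 did not overlap (10.7%). Both comparisons share the 6 air libraries.

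Bcas1 in female air libraries was 108, 128 and 141 CPM (lowest, median, highest), below all 10 aerosol libraries. It rose by 0.54 with nicotine (SE 0.0729, edgeR adjusted p = 0.000709) and by 0.41 without (SE 0.0729, edgeR adjusted p = 0.00128) on the log2 scale. In males, as a description, the no-nicotine difference from air was 0.47 and the nicotine difference 0.06.

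Bmp3 in female air libraries was 11.6, 14.8 and 16.1 CPM, above every aerosol library. It fell by 0.84 on the log2 scale with nicotine (SE 0.135, edgeR adjusted p = 0.0014) and fell by 0.79 without (SE 0.133, edgeR adjusted p = 0.00103). The male differences from air were -1.56 without nicotine and -0.25 with it.

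Ccdc3 in female air libraries was 23.7, 27.6 and 31.8 CPM, again above all aerosol libraries. It fell by 0.85 on the log2 scale with nicotine (SE 0.134, edgeR adjusted p = 0.00114) and fell by 0.70 without (SE 0.132, edgeR adjusted p = 0.00167). In males the values were -0.22 with nicotine and -1.09 without. The exact two-sided permutation p was 0.00216 for Bcas1, Bmp3 and Ccdc3 with either aerosol, the smallest that 5 against 6 libraries can give.

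Tshz3 in female air libraries was 25.1, 33.5 and 38.5 CPM, and air replicate 3 fell within the range of both aerosol groups. The log2 differences were -0.56 with nicotine (SE 0.152, edgeR adjusted p = 0.0241; exact permutation p = 0.00649) and -0.59 without (SE 0.151, edgeR adjusted p = 0.00957; exact permutation p = 0.0108). The call without nicotine sat at the threshold: it held in 4 of 19 alternative fits, was lost in 9 of the 11 that left out 1 library (adjusted p 0.0311 without no-nicotine replicate 3), while the nicotine difference passed in 2 of 19 (DESeq2, 0.00526, and a fit of only those groups, 0.00645). The male differences were -0.19 with nicotine and -0.82 without.

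Lct in female air libraries was 2.83, 3.31 and 4.69 CPM and overlapped both aerosol groups. The log2 differences were -0.80 with nicotine (SE 0.294, edgeR adjusted p = 0.0829; exact permutation p = 0.0173) and -0.51 without (SE 0.283, edgeR adjusted p = 0.210; exact permutation p = 0.039), and neither passed in any of 19 alternative fits. In males Lct differed from air by -1.54 without nicotine and 0.12 with it.

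**Figure D3:**
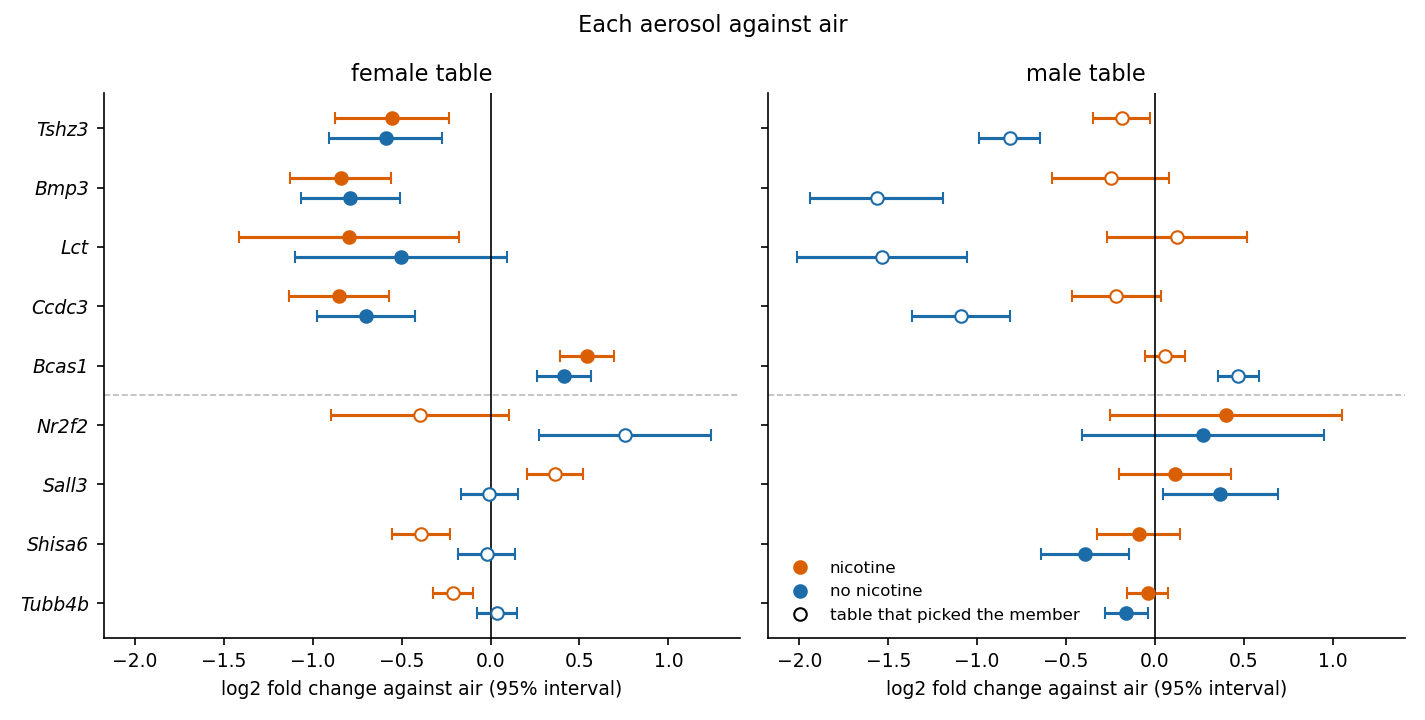
Log2 fold change of each aerosol group against air, with 95% intervals, for the 9 genes in the female (left) and male (right) tables, open points in the table that picked the gene. In females the nicotine and no-nicotine points of Tshz3, Bmp3, Lct, Ccdc3 and Bcas1 sit together, and in males the no-nicotine points of these genes sit farther from 0 than the nicotine points.

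In the male table the order of group levels was thus air and nicotine, whose ranges overlap for all 5 genes, then no nicotine, whose range overlaps neither, and in the female table air, then the aerosols, whose ranges overlap each other. In males 5 of 5 had no overlap between no nicotine and air (12.4% of all genes) and 0 of 5 between nicotine and air (2.05%); edgeR called 13.6% of all genes (6.15% higher, 7.47% lower) without nicotine and 0 genes (0%) with it, with 14.4% of genes under an unadjusted p of 0.05 and 141 genes called by DESeq2. The male counts use libraries that chose the genes and nothing is read from them.

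The 4 genes picked in the female table had another pattern there: the nicotine group of Shisa6 and Tubb4b lay below every air and no-nicotine library, that of Sall3 lay above every no-nicotine library and overlapped air, and for Nr2f2 the mean of air lay between those of the aerosol groups. None of the 4 passed the threshold in its own table, where each had an edgeR adjusted p of 0.5745.

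Nr2f2 in females was 26.8, 28.4, 19.1, 32.1 and 24.7 CPM with nicotine and 38.4, 67.0, 72.6, 65.6 and 48.4 CPM without. Air libraries were 23.6, 28.3 and 61.7 CPM. The aerosol groups did not overlap, but air, with a 2.61-fold spread, overlapped both. The log2 difference between the aerosols was -1.16 (SE 0.246).

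Sall3 in females was 17.5, 15.7, 14.4, 16.2 and 18.6 CPM with nicotine and 12.3, 12.7, 13.1, 11.9 and 13.7 CPM without. Air was 11.2, 12.9 and 14.7 CPM, covering the whole no-nicotine range and touching the lowest nicotine library. The log2 difference between the aerosols was 0.37 (SE 0.0794).

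Shisa6 in females was 19.3, 19.4, 19.6, 21 and 23.3 CPM with nicotine and 27.5, 24.2, 28.9, 28.5 and 23.4 CPM without. Air was 23.4, 28.5 and 28.8 CPM. The nicotine group lay below both others by a narrow margin at its highest library, and the log2 difference between the aerosols was -0.37 (SE 0.0797).

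Tubb4b in females was 16.4, 18.8, 19.2, 17.8 and 19.6 CPM with nicotine and 22.3, 19.8, 22.9, 21.7 and 22.5 CPM without. Air was 20.4, 21.3 and 22.5 CPM. Again the nicotine libraries were the lowest, by a small amount, and the log2 difference was -0.25 (SE 0.0555). Around these ranks, Cyp26b1 (rank 1, -1.03), Pnoc (rank 4, -0.65) and Sox4 (rank 7, 0.28) are not among the 9.

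**Figure D4:**
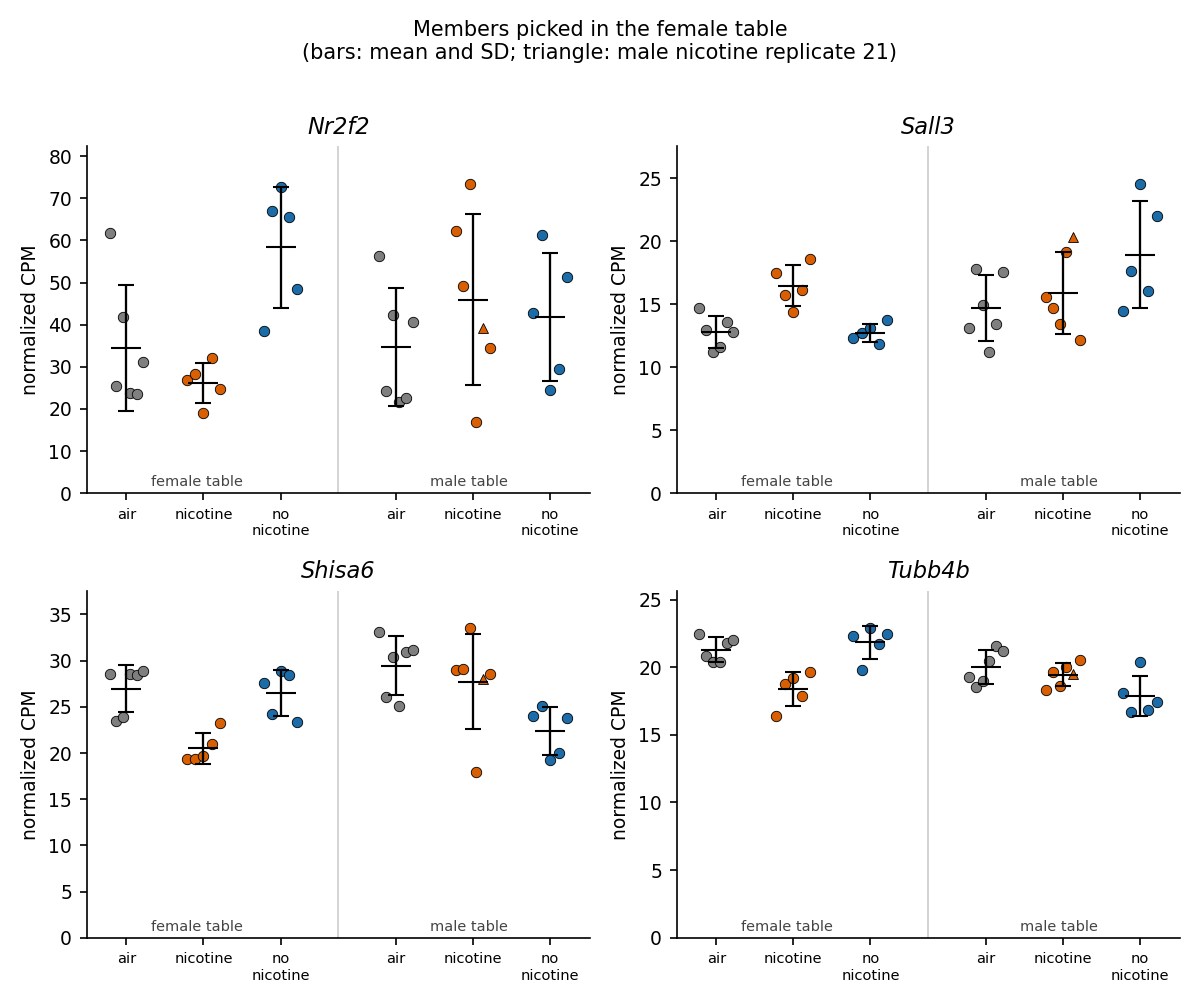
Normalized CPM of Nr2f2, Sall3, Shisa6 and Tubb4b in each library of both tables by treatment, with the group mean and SD as bars and male nicotine replicate 21 as a triangle. The female nicotine points of Sall3 lie above and those of Shisa6 and Tubb4b below the no-nicotine points, and the male aerosol groups overlap.

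The male table gave the test of these 4 genes, and each estimate had the opposite sign, though that of Nr2f2 turned to -0.055 without nicotine replicate 17 and to -0.0115 without no-nicotine replicate 4. Of the 4, 0 passed an adjusted p of 0.01 between the aerosols (0.248% of all genes), 0 had groups that did not overlap (2.15%) and 1, Shisa6, had an unadjusted p under 0.05 (20.1%).

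Nr2f2 in males was 17, 44.1 and 73.5 CPM with nicotine and 42.8, 61.3, 24.6, 29.4 and 51.3 CPM without. Its nicotine range covered all other male libraries, the air group included (21.7, 32.5 and 56.3 CPM). The log2 difference between the aerosols was 0.13 (SE 0.323, 95% interval -0.55 to 0.81, edgeR adjusted p = 0.872; exact permutation p = 0.874), beside -1.16 in females.

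Sall3 in males was 12.1, 15.2 and 20.4 CPM with nicotine and 14.5, 17.7, 24.6, 16.0 and 22 CPM without. The higher group was the nicotine-free one here, with wide overlap. The log2 difference was -0.26 (SE 0.155, 95% interval -0.58 to 0.07, edgeR adjusted p = 0.377; exact permutation p = 0.206), and -0.34 without replicate 21, which had the highest nicotine value.

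Shisa6 in males was 18, 28.8 and 33.5 CPM with nicotine and 24.0, 25, 19.3, 19.99 and 23.8 CPM without. Nicotine replicate 19 was the lowest of all male libraries and the other 5 nicotine libraries exceeded every no-nicotine library. The estimate on the log2 scale was 0.30 (SE 0.119, 95% interval 0.06 to 0.55, edgeR p = 0.0191, adjusted p = 0.153; exact permutation p = 0.0844), beside -0.37 in females.

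Tubb4b in males was 18.3, 19.6 and 20.6 CPM with nicotine and 18.1, 16.7, 20.4, 16.8 and 17.4 CPM without. All but 1 of the no-nicotine libraries lay below the nicotine group. On the log2 scale the groups differed by 0.12 (SE 0.0584, edgeR adjusted p = 0.259; exact permutation p = 0.0606), beside -0.25 in females. The 95% intervals of the 4 male estimates excluded the female estimates for each gene. Because the female contrast chose the genes, this is a description, and the difference between the tables was not tested.

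Against male air, 0 of 4 passed with either aerosol, where 0% of all genes passed with nicotine and 13.6% without. With nicotine the log2 differences from air were 0.40 for Nr2f2 (edgeR adjusted p = 0.608), 0.11 for Sall3 (0.797), -0.09 for Shisa6 (0.777) and -0.04 for Tubb4b (0.807), and all 4 overlapped with air. Without nicotine they were 0.27 for Nr2f2 (edgeR adjusted p = 0.593), 0.37 for Sall3 (0.0912), -0.40 for Shisa6 (0.0199) and -0.16 for Tubb4b (0.0513). Shisa6 without nicotine did not overlap with air, its highest library at 25.04 CPM and the lowest air library at 25.1 CPM (exact permutation p = 0.00433; 12.4% of all genes did not overlap), and it passed under DESeq2 (adjusted p = 0.00657) and when only those groups were fitted (0.00567). In females, as a description, the nicotine differences from air were -0.40, 0.36, -0.39 and -0.21 for Nr2f2, Sall3, Shisa6 and Tubb4b, and the no-nicotine ones 0.76, -0.01, -0.02 and 0.04.

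Other genes of the same families and pathways come from lists that leave the 9 out. Between the aerosols only 0.248% of all genes passed in males and 0% in females, so counts of 0 in a short list say nothing particular to it. Of the BMP genes, 0 of 7 ligands, 0 of 10 receptors and SMADs, 0 of 6 antagonists and 0 of 6 target genes passed in the male or the female contrast. Among them Nog, a secreted BMP antagonist, differed by 0.37 in males (edgeR adjusted p = 0.0541) and 0.01 in females (0.984). Against air, the ligand Bmp4 rose in females with nicotine (0.53, edgeR adjusted p = 0.00972) and without (0.50, 0.00679), while Bmp3 fell, and in males without nicotine Bmp4 rose by 0.67 (0.000923), Nog fell by 0.40 (0.008) and the target gene Id2 fell by 0.40 (8.92e-05). The lists had no common direction. Without nicotine 2 of 6 antagonists passed as higher and 0 as lower in females, and 1 and 1 in males. Of 6 target genes 1 passed as higher in females with nicotine, and in males without nicotine 4 estimates were higher and 2 lower. Of all genes 4.29% passed in females with nicotine, 12.1% in females without and 13.6% in males without. The median log2 difference between the aerosols in males was 0.08 over the ligands and 0.01 over the target genes, beside -0.01 over all genes.

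Beside the same shares, neither aerosol contrast called any of the related genes, with 0 of 4 tested Teashirt and Spalt genes, 0 of 12 COUP-TF and caudal interneuron genes, 0 of 9 medial ganglionic interneuron genes, 0 of 13 AMPA receptor auxiliary and Shisa genes and 0 of 10 tubulins. Sall2 rose without nicotine in females (0.48, edgeR adjusted p = 0.00191) and males (0.34, 0.00242). Nr2f1, the COUP-TFI paralog of Nr2f2, fell in females with nicotine by 0.69 (0.000816) and without by 0.51 (0.0018) and in males without nicotine by 0.66 (0.000593), and Vip, a neuropeptide of caudal interneurons, differed between the aerosols in males by 0.57 (0.0265) and in females by 0.07 (0.913). Cacng3, an AMPA receptor auxiliary subunit, fell without nicotine in females by 0.46 (0.00414) and in males by 0.44 (0.00144).

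Most myelin genes passed as higher than air in the groups where Bcas1 lay above every air library of the table. Of 14 tested, 14 passed as higher in females with nicotine (1.98% of all genes did), 13 in females without (5.03%), 12 in males without (6.15%) and 0 in males with nicotine (0%). By estimate alone, 14 of 14 were higher than air in each aerosol group, with a median log2 difference of 0.16 in males with nicotine. Between the aerosols 0 passed in either table, where the median log2 difference was -0.48 in males and 0.08 in females. Of 8 genes of newly formed oligodendrocytes 1 passed as higher than air in females with nicotine, 2 without, 0 in males with nicotine and 4 without. The estimates of 8 of 8 were above air in each of these groups. Of 5 precursor genes the counts passing were 2, 3, 0 and 3, beside the same shares of all genes, and 3, 5, 5 and 5 had estimates above air.

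The libraries also differed in genes that mark parts of the brain, whose part in the results above was not tested. The mean log2 CPM of 16 cortical glutamatergic markers was 6.19 to 6.56 in female air, 5.44 to 6.09 with nicotine and 5.29 to 6.02 without, and in males 6.16 to 6.31, 5.70 to 6.06 and 5.03 to 5.90. In males 2 of these 16 (0.248% of all genes passed), Nrn1 (0.90, edgeR adjusted p = 0.00639) and Mef2c (0.56, 0.00692), were higher with nicotine than without. Against air 12 of 16 passed as lower without nicotine in females (7.03% of all genes) and 12 of 16 in males (7.47%). With nicotine 3 of 16 did in females (2.32%) and 0 in males (0%). Over 14 myelin genes the mean log2 CPM was 7.58 to 7.89, 8.22 to 8.58 and 8.02 to 8.59 in females and 7.82 to 8.12, 7.78 to 8.38 and 8.17 to 9.05 in males, in the same order of groups. Over 8 basal forebrain cholinergic markers, Chat among them, the mean was 1.06 to 2.96, 2.97 to 4.27 and 3.39 to 4.75 in females and 1.87 to 3.06, 3.29 to 3.87 and 3.47 to 4.61 in males. The estimates of 8 of 8 were above air in every aerosol group, with a median log2 difference of 1.02 in male nicotine. As higher than air, 8 of 8 passed in females with nicotine (1.98% of all genes), females without (5.03%) and males without (6.15%). In male nicotine 0 of 8 passed and 0% of all genes did. Over 5 choroid plexus markers the mean was 4.95 in male no-nicotine replicate 7, 0.41 to 0.88 in the other 4 of that group and 0.23 to 1.15 with nicotine, and in females 3.73 in no-nicotine replicate 3, -0.13 to 0.86 in the other 4 and -0.02 to 0.69 with nicotine. Air libraries had 0.007 to 3.75 in females and -0.63 to 1.58 in males, so a high value was also seen in female air. Without male replicate 7 the male aerosol differences were 0.70 for Tshz3, 1.41 for Bmp3, 1.70 for Lct, 0.97 for Ccdc3 and -0.44 for Bcas1.

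With the cortical marker mean as a covariate, the male aerosol differences were 0.42 for Tshz3, 0.83 for Bmp3, 1.33 for Lct, 0.41 for Ccdc3 and -0.35 for Bcas1, all with the sign they had and with edgeR adjusted p of 0.176 (Bcas1) to 0.309 (Ccdc3), and in females against air this fit called 0 genes in the whole table with either aerosol, so 0 of 5 is not a result about these genes (with and without nicotine, Tshz3 -0.00116 with edgeR adjusted p = 0.999 and 0.093 with 0.968, Lct -0.86 with 0.551 and -0.59 with 0.912, Bcas1 0.43 with edgeR adjusted p = 0.278 and 0.27 with 0.907, Bmp3 -0.47 with 0.412 and -0.30 with 0.907, Ccdc3 -0.41 with 0.41 and -0.12 with 0.944). Marker mean and treatment are close to confounded, since every aerosol library had a lower mean than every air library of its table. In this bulk tissue, fewer cells of a type and less RNA per cell cannot be told apart.

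**Figure D5:**
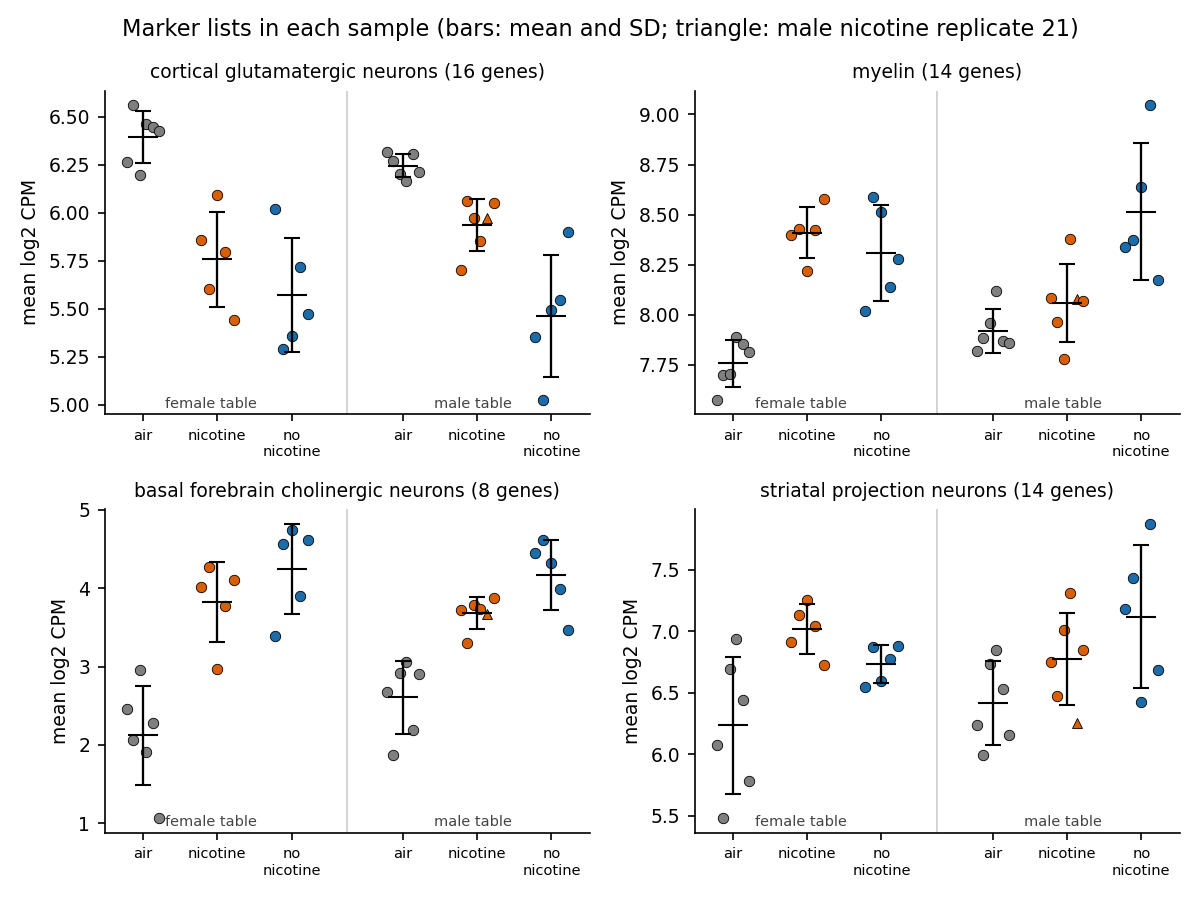
Mean log2 CPM of cortical glutamatergic (16 genes), myelin (14), basal forebrain cholinergic (8) and striatal projection neuron (14) markers in each library, with the group mean and SD as bars and male nicotine replicate 21 as a triangle. Aerosol libraries lie below air for the cortical markers, and the male no-nicotine group has the lowest cortical and highest myelin mean of the male groups.

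The genes most like each of the 9 over all 33 libraries, with each table centred on its own mean, are given as a description, since libraries share treatment and table (13720 genes compared). Bcas1 varied with Plekhb1 (Pearson r = 0.967), myelin basic protein Mbp (0.962) and Gjc3 (0.955), a connexin of oligodendrocytes. Tshz3 varied with the Nogo receptor Rtn4r (0.932), the presynaptic syntaxin Stx1a (0.930) and the upper-layer transcription factor Cux2 (0.926). Lct varied with the vesicular zinc transporter Slc30a3 (0.921), Olfm1 (0.879) and Nrn1 (0.879), Ccdc3 with Zbtb18 (0.941), Olfm1 (0.940) and Slc39a10 (0.937), and Bmp3 with Syt17 (0.905), Smoc2 (0.894) and Ccdc3 (0.892).

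Likeness was lower for the genes picked in the female table apart from Nr2f2, which varied with Hpcal1 (r = 0.904), Lypd1 (0.903) and Pcdh8 (0.866). Sall3 varied with Sephs1 (0.778), its paralog Sall1 (0.741) and Rnd3 (0.710), Shisa6 with Mtfp1 (0.829), Syn2 (0.820) and Amph (0.815), and Tubb4b with Lingo2 (0.668), Ckap4 (0.653) and Stmn2 (0.651). Taken as deviations from group means, the likeness of the top gene was 0.887 for Nr2f2, 0.874 for Bcas1, 0.826 for Lct, 0.791 for Ccdc3, 0.784 for Tshz3, 0.744 for Bmp3, 0.668 for Shisa6, 0.665 for Sall3 and 0.616 for Tubb4b. Leaving out replicate 21 kept all 3 genes for Tshz3, Bcas1, Lct, Ccdc3, Nr2f2 and Shisa6 and 2, 2 and 1 of 3 for Sall3, Tubb4b and Bmp3.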

How the data were processed

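RNA of frontal cortex was sequenced as single 50-base reads, and the authors deposited whole-number counts per gene for each sex, made with bcl2fastq, Bowtie, SAMtools (duplicate reads removed) and HTSeq on build mm9. The strand setting was not given in the sources used here. Tables of counts divided by size factors were also deposited and were not used. Groups came from the sample labels, and 1 of 34 count columns matched no labelled sample and was left out. Genes whose CPM summed to 5 or more over a table were kept. Each table was fitted with edgeR 4.0.16 (R 4.3.3), TMM normalization and the quasi-likelihood test over all 3 groups, with Benjamini-Hochberg adjustment over all genes and a threshold of 0.01. Exact two-sided permutation tests used log2 CPM with a prior count of 1. DESeq2 1.42.0, other normalizations and filters, single left-out libraries, a replicate block, a 2-group fit and a cortical marker covariate were alternatives. Scripts were tested on simulated data. Figures used Python 3.11.15 and matplotlib 3.10.9.

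The genes, and all lists of related and marker genes, were chosen with earlier results of these data known. Named genes are the 9, the 3 most like each by Pearson r, and from each list at most the 4 with the smallest p between the aerosols in males. P-values measure the spread between pups of separate litters. Removing duplicates from single-end reads can lower the counts of highly expressed genes. Proteins and 4 promoters were not analysed here.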

Additional observations from a re-analysis of the deposited data

Results flagged for a closer look

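Of 54 sets of values (9 genes in 6 groups), 4 held 1 library whose gap to its nearest neighbour exceeded the 95% limit of Dixon's test, where chance alone gives about 1 in 20 (2.7 sets). Bmp3 in female air replicate 2 was 11.6 CPM, below the other 5 at 14.4 to 16.1 CPM. Ccdc3 in female nicotine replicate 3 was 20.4 CPM, above the other 4 at 13.3 to 14.9 CPM. Ccdc3 in male air replicate 37 was 19.4 CPM, below the other 5 at 22.1 to 23.6 CPM. Shisa6 in male nicotine replicate 19 was 18 CPM, below the other 5 at 28.0 to 33.5 CPM.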

How the results depend on the processing

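Over the alternatives, 977 of 999 fold changes of the 9 genes kept their direction and 22 changed sign: 6 with the covariate, 2 with the replicate block, 1 with upper quartile normalization and 13 with 1 library left out, all with an adjusted p of at least 0.796. With the cortical marker mean as a covariate, Tshz3 in females was -0.094 (nicotine minus no nicotine) and 0.093 (no nicotine against air), Nr2f2 without nicotine against air was -0.17 in females and -0.0103 in males, Bmp3 and Ccdc3 with nicotine against male air were 0.077 and 0.083, 0 of 5 genes passed in females against air with either aerosol, and 6 genes passed between the aerosols in males. DESeq2 called 454 genes there and 1 of 4 (Shisa6) without nicotine against air in males. Fitting only the groups compared called 0 genes and the same 1 of 4. Leaving out 1 library at a time, the genes called between the aerosols in males ranged from 0 (without no-nicotine replicate 3 or 5) to 246 (without nicotine replicate 19), with 5 without nicotine replicate 16, 17, 21 or 22, 1 without no-nicotine replicate 4, 100 without 2 and 161 without 7. The genes passing without nicotine against air in males ranged from 0 to 1 of 4 (Tubb4b, edgeR adjusted p = 0.00991 without no-nicotine replicate 4). Nicotine minus no nicotine ranged from -0.084 (without no-nicotine replicate 2) to 0.19 for Tshz3 and from -0.14 to 0.054 (without nicotine replicate 6) for Bmp3 in females, and from -0.055 (without nicotine replicate 17) to 0.31 for Nr2f2 in males, and Shisa6 with nicotine against male air from -0.15 to 0.0081 (without nicotine replicate 19). Without nicotine against air in females, Sall3 (-0.00758) turned to 0.00709 with upper quartile normalization and 0.0177 with the replicate block, Shisa6 (-0.023) to 0.00499 with the block, and both crossed 0 as libraries were left out (up to 0.0318 without air replicate 1 and 0.019 without no-nicotine replicate 5). In females against air, the genes called over the whole table ranged from 226 (without nicotine replicate 2) to 930 (without nicotine replicate 3) with nicotine and from 823 (without no-nicotine replicate 2) to 2505 (without no-nicotine replicate 1) without, while Bcas1, Bmp3 and Ccdc3 passed in each of these fits; DESeq2 called 1319 genes with nicotine, and the covariate fit 0 with either aerosol. In males against air the covariate fit called 12 genes without nicotine, and with nicotine the fit of only those groups called 17. The cause was not tested.

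In females the replicate numbers of the groups did not pair the libraries (14 pairs of the same number, r from -0.27 to 0.27, 4 over 0.1). With the replicate block, Ccdc3 with nicotine was -0.87 against air (edgeR adjusted p = 0.0101) and Tshz3 without nicotine -0.60 (0.0217), and the genes called fell from 651 to 136 with nicotine and from 1829 to 736 without. In males the groups share no number, so no block could be fitted there. Depth limits Lct most, with 14 counts in its lowest libraries.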

Other observations

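Deviations from group means were also compared with the cortical glutamatergic marker mean, as a description over 16 female and 17 male libraries that share treatment groups. Pearson r was 0.707 in females and 0.781 in males for Ccdc3, 0.715 and 0.581 for Tshz3, 0.603 and 0.648 for Bmp3, and -0.02 and 0.323 for Lct. It was -0.296 and -0.25 for Bcas1, -0.599 and -0.09 for Nr2f2, -0.381 and 0.148 for Sall3, -0.01 and 0.04 for Shisa6 and 0.003 and 0.198 for Tubb4b. The median absolute r over all genes was 0.325 in females and 0.234 in males.

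Among the 10 pairs of genes picked in the male table, r of these deviations ran from -0.65 to 0.483 in females and from -0.56 to 0.711 in males. Among the 6 pairs picked in the female table it ran from -0.05 to 0.492 in females and from -0.51 to 0.886 in males.

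Other brain regions and cell types gave these counts between the aerosols, where 0% of all genes passed in females and 0.248% in males. Counts of 0 in these lists therefore say nothing particular to them. No gene of 14 striatal, 8 thalamic, 6 hypothalamic, 9 astrocyte, 10 microglial, 8 endothelial or 6 meningeal genes passed in either table, nor did any of 5 choroid plexus genes, 4 (females) or 5 (males) olfactory bulb genes or 5 claustrum genes, in edgeR at an adjusted p of 0.01. The beta-glucosidase relatives of Lct were tested for 1 gene in females and 2 in males and did not pass. By estimate, 14 of 14 striatal genes were higher with nicotine than without in females and 14 of 14 lower in males (median log2 difference 0.30 and -0.40). Of 6 meningeal genes, 6 were lower in females and 6 higher in males (-0.24 and 0.54).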
